A study of Equus caballus with 32 samples.

Results

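The 100 most abundant transcripts of equine synovium, the membrane that lines a joint, were described across 32 bulk RNA libraries. They were the 100 genes with the highest mean CPM over all libraries, out of 19418 in the deposited table. CPM is a gene's count divided by the total count of its library, times 1000000. These genes are 0.515% of the table and held 28.2% ± 3.21 of the counts of a library (SD, n = 32 libraries). Mean CPM chose them, so their high level is a description and carries no test.

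The libraries came from 16 horses, 8 in an arm labelled Control and 8 in an arm labelled iPAAG, an intra-articular gel of polyacrylamide. Each horse has a week 0 and a week 10 library, which gives 4 groups of 8: control horses at week 0, control horses at week 10, iPAAG horses at week 0 and iPAAG horses at week 10. Per the labels' protocols, all horses of both arms had a fragment of bone and cartilage made in 1 middle carpal joint and a sham arthroscopy of the other. Week 0 tissue was taken at arthroscopy before that step and week 10 tissue after death, so time, joint disease and the way of sampling cannot be told apart in any change over time. The series is described as randomized, with a placebo as control. The labels do not say which joint a library came from, when the hydrogel was given, or the age, breed or sex of the horses. Tissue was minced and digested with collagenase, and the RNA is that of the cells recovered by slow centrifugation.

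Synovium has a thin lining of macrophages and of fibroblasts that secrete hyaluronan and lubricin into the joint fluid, over a looser layer of fibroblasts, vessels and immune cells. In poly(A) RNA of such a tissue, transcripts of mitochondria, ribosomal proteins, translation factors, iron storage proteins and secreted matrix proteins are commonly among the most abundant. Read counts are also shared within a library, so a large rise of 1 abundant gene lowers the CPM of all others. Which of the 100 genes belong to these classes was not determined, because the table gives Ensembl gene IDs without symbols and the reference table used for names holds 0 Ensembl IDs for horse. The genes are therefore called by abundance rank, from 1 (most abundant) to 100, and IDs are given for the 2 that rose most and the 2 that fell most. The label synovium could not be checked against marker genes for the same reason. In bulk tissue, fewer cells of a type and less RNA per cell cannot be told apart.

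Total counts per library ran from 5428928 to 56476566. The week 10 libraries of control horses 2 and 11 shared the fewest of their own 100 highest genes with the list and held the most minima of the 100 genes, and counts that lead a result are given with and without these 2 horses. Horse 2 had the smallest total, 5428928 counts, against 23088448 or more in every other library. The lowest value of any of the 100 genes in any library was 9.75 CPM, and 0 of them were at 0 anywhere, so counting error is small beside the spread between horses.

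Abundance fell steeply down the list. Rank 1 had a mean of 33783 CPM, 37.5 times that of rank 100 at 902 CPM. Rank 1 alone held 3.38% ± 1.77 of the counts, ranks 1 to 10 held 11.9% ± 3.21 and ranks 11 to 100 held 16.3% ± 3.11 (SD, n = 32 libraries). The next 900 genes by abundance held 30.1% ± 1.65, and 595 genes were needed to reach 50% of mean CPM. The limit of the list fell in a smooth stretch. Ranks 98, 99 and 100 had means of 920, 915 and 902 CPM, and the 3 genes just outside had 896, 885 and 884 CPM.

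A list chosen on the mean need not match each library. The 100 highest genes of a single library shared a median of 81.5 genes with the list, from 49 in control horse 11 at week 10 to 88. Control horse 2 at week 10 shared 56, control horse 15 shared 66 and control horse 1 shared 69, and every other library shared at least 74. Together 316 genes were among the 100 highest of at least 1 library, and 20 were so in all 32, all of them members. Within the list, 92 genes were among the 100 highest in at least 16 libraries.

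Across libraries the 10 most abundant genes behaved unlike each other. Rank 1 had medians of 39390 CPM in control horses at week 0, 13633 at week 10, 37997 in iPAAG horses at week 0 and 34566 at week 10. Single libraries ran from 2602 CPM (control horse 11, week 10) to 76229 CPM (control horse 9, week 0), a factor of 29.3, and the 4 groups overlapped. Its log2 fold change over 10 weeks was -0.86 in the control arm (SE 0.32, edgeR adjusted p = 0.0977) and 0.03 in the iPAAG arm (SE 0.31, adjusted p = 0.976).

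Rank 2 was carried by a few libraries. Its mean was 16962 CPM, its median 6185 CPM, and single libraries ran from 432 CPM to 116093 CPM in control horse 2 at week 10. Its medians were 7092 CPM and 8438 CPM in control horses at weeks 0 and 10, and 4915 CPM and 10762 CPM in iPAAG horses. Rank 5 had the same lopsided shape, with a mean of 10870 CPM, a median of 4217 CPM and a range from 363 CPM to 47948 CPM, the last in iPAAG horse 7 at week 0. Neither gene passed the test over time. The mean log2 fold change of both arms was 1.27 for rank 2 (SE 0.90, edgeR adjusted p = 0.359) and 0.53 for rank 5 (SE 0.96, adjusted p = 0.745).

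Ranks 7 and 8 were the 2 genes of the first 10 that fell. Rank 7 ran from 5487 to 13168 CPM (median 9600) in control horses at week 0 and from 995 to 5259 CPM (median 3082) at week 10. In iPAAG horses it ran from 8984 to 13284 CPM (median 10825) and then from 1637 to 7369 CPM (median 3927). The weeks did not overlap in either arm, and all 16 horses were lower at week 10 (mean log2 fold change -1.66, SE 0.22, edgeR adjusted p = 6.35e-05). Rank 8 had medians of 9896 and 3050 CPM in control horses and of 8622 and 3422 CPM in iPAAG horses. Its weeks overlapped in the iPAAG arm alone, where 1 of 8 horses was higher at week 10. Averaged over the arms it changed by -1.59 on the log2 scale (SE 0.31, edgeR adjusted p = 0.0019). The other 8 genes did not pass the threshold in edgeR. Among them, rank 3 had a value of -0.77 (SE 0.31, edgeR adjusted p = 0.0905) and rank 9 one of -0.27 (SE 0.17, adjusted p = 0.293). Rank 3 was -0.45 without control horses 2 and 11. It passed the threshold in DESeq2 and in the quality-weighted limma-voom fit, and rank 9 did so in the latter. Ranks 4, 6 and 10 lay within 0.2 of no change, at 0.17 (SE 0.21), -0.08 (SE 0.21) and -0.10 (SE 0.22).

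The share of counts held by the 100 genes together had group means between 27.7% and 29.3%. Control horses had 29.3% ± 3.19 at the start and 27.7% ± 4.80 at week 10, and iPAAG horses had 28.0% ± 2.40 and 27.7% ± 2.15 (SD, n = 8). Within horses the change from week 0 to week 10 was -1.57 ± 6.43 percentage points in the control arm and -0.26 ± 3.18 in the iPAAG arm (SD, n = 8). The share was higher at week 10 in 1 of 8 control horses, horse 11, and in 4 of 8 iPAAG horses. Without horse 11 the control change was -3.66 ± 2.69 points (SD, n = 7), lower at week 10 in every one of the 7, and without horses 2 and 11 it was -3.95 ± 2.83 (SD, n = 6). These values were added after the data were seen. Horse 11 reached 38.9%, while the other 7 control libraries of week 10 lay between 24.3% and 29.0%. Without horses 2 and 11 the control share at week 10 was 25.7% ± 1.45 (SD, n = 6).

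**Figure D1:**
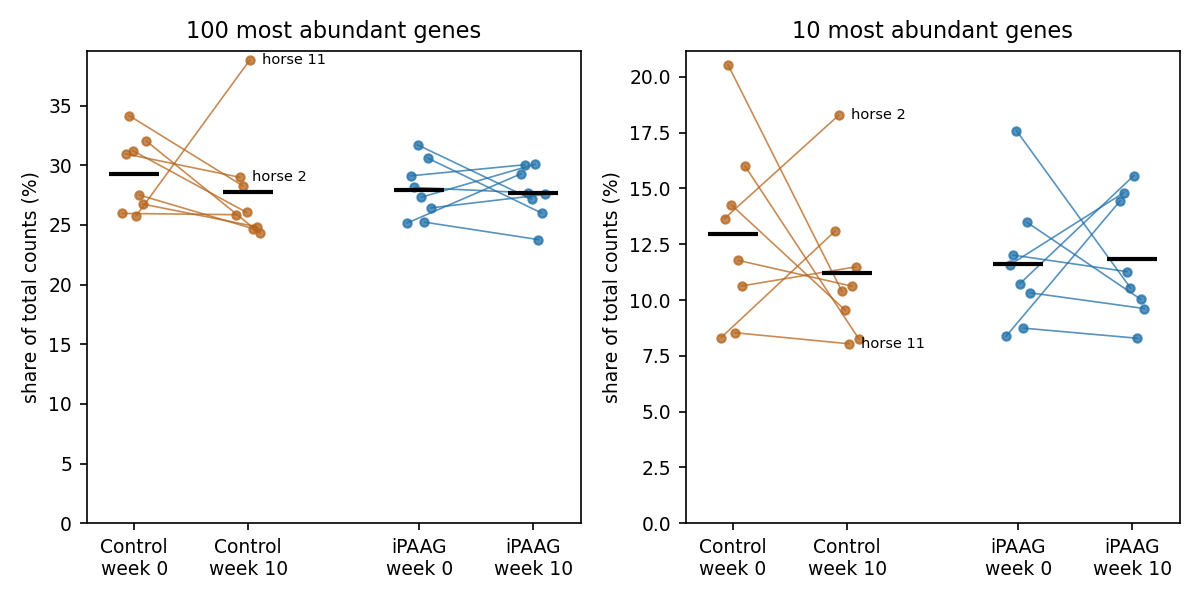
Share of total counts (%, vertical axis from 0) of the 100 most abundant genes (left) and of ranks 1 to 10 (right), with the 2 libraries of a horse joined by a line and group means of 8 horses as black bars. Control horse 11 at week 10 had the highest share of the 100 genes, 38.9%, and the lowest share of ranks 1 to 10, 8.04%, while control horse 2 at week 10 had 18.3% in ranks 1 to 10.

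The first question was which of these genes changed between the weeks, both arms averaged. A gene was called where its edgeR p, adjusted over all 15498 genes tested, was under 0.05. All 100 genes were tested, and 13 rose and 21 fell, 34 in all. Over all genes tested 8.38% rose, 10.2% fell and 18.6% were called in either direction. Among the next 900 genes by abundance the share called was 27.9%. The median log2 fold change of the 100 genes was -0.18 against -0.05 over all genes tested, with a median size of 0.39 against 0.33 and a median standard error of 0.20 against 0.21. Of the called genes, 6 rose and 15 fell at least 2-fold. Over all 15498 genes tested, 555 called genes rose and 540 fell by as much, and among the next 900 by abundance 36 and 46. Without control horses 2 and 11, 15 rose and 21 fell, beside 27.4% of all genes tested, and 33 of the 34 genes were still called. The exception was rank 33 (-0.75, SE 0.23, edgeR adjusted p = 0.0277), which without them had a value of -0.68 (SE 0.25, adjusted p = 0.0534).

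**Figure D2:**
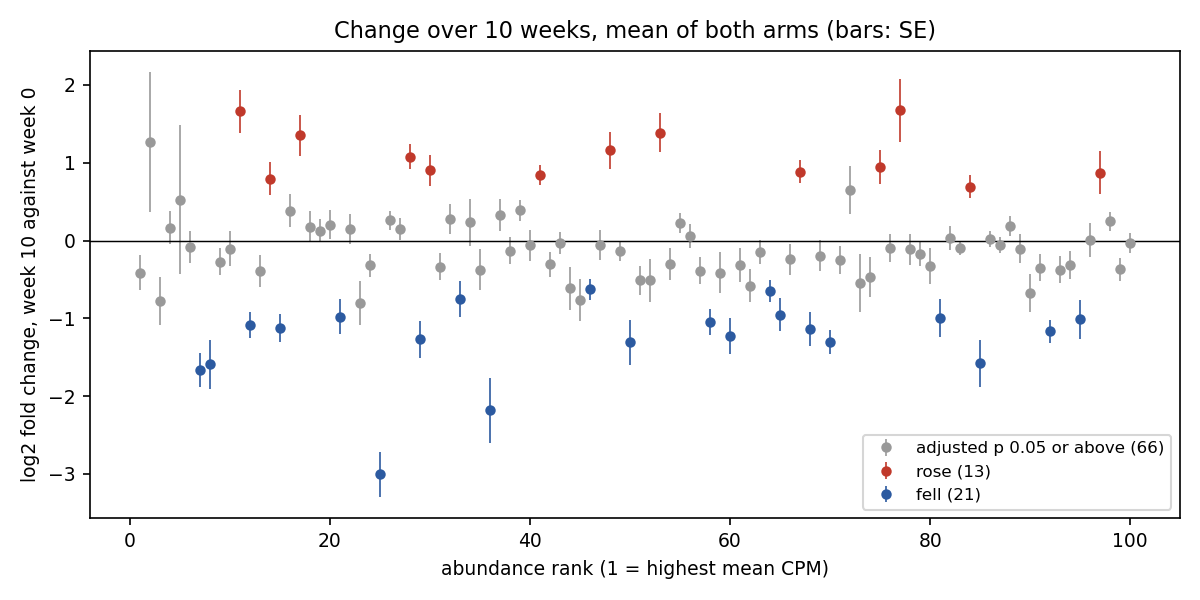
Log2 fold change of week 10 against week 0, averaged over the arms (vertical axis, bars are standard errors) for the 100 genes by abundance rank (horizontal axis). The 13 genes that rose are red, the 21 that fell are blue, and the 66 that did not pass the threshold are grey; ranks 25 and 36 lie lowest, at -3.01 and -2.18, and ranks 77 and 11 highest, at 1.67 and 1.66.

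The gene that fell most was rank 25, ENSECAG00000023509. Its CPM in control horses ran from 1509 to 7785 (median 3879) at week 0 and from 30.02 to 1865 (median 281) at week 10. In iPAAG horses it ran from 2712 to 6384 (median 3735) and then from 288 to 1754 (median 844). All 16 horses were lower at week 10, and the weeks overlapped in the control arm alone, where horse 9 kept 1865 CPM. On the log2 scale the mean change was -3.01 (SE 0.28, edgeR adjusted p = 8.36e-06), a fall of 8.04-fold. Without control horses 2 and 11 it was -2.82.

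Rank 36, ENSECAG00000019665, was the next. In control horses it ran from 1035 to 6616 CPM (median 2420) at week 0 and from 94.7 to 905 CPM (median 395) at week 10, with no overlap. In iPAAG horses the ranges, 417 to 10249 CPM (median 2764) and 242 to 1716 CPM (median 1100), overlapped. The later library was the lower one in 15 of 16 horses, the exception being iPAAG horse 8, which went from 417 to 1630 CPM. Its mean change on the log2 scale was -2.18 (SE 0.41, edgeR adjusted p = 0.00134).

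Ranks 77 and 11 rose most, by amounts that differed by less than their errors and changed order with the scaling. Rank 77 is ENSECAG00000019465. In iPAAG horses it went from 139 to 1100 CPM (median 568) at week 0 to 1233 to 3623 CPM (median 2064) at week 10, with no overlap and a rise in 8 of 8 horses. In control horses the ranges were 113 to 580 CPM (median 406) and 152 to 5279 CPM (median 575), and 5 of 8 horses were higher. Control horses 2, 11 and 15 were lower. The mean change on the log2 scale was 1.67 (SE 0.41, edgeR adjusted p = 0.00777), and 2.08 without control horses 2 and 11.

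Rank 11, ENSECAG00000013693, rose in 16 of 16 horses. Its CPM ran from 885 to 2450 (median 1948) in control horses at week 0 and from 3975 to 47178 (median 5054) at week 10, the top value being that of horse 11. In iPAAG horses it ran from 678 to 3463 (median 2379) and then from 3598 to 8477 (median 5704). The weeks did not overlap in either arm. Averaged over the arms the change was 1.66 on the log2 scale (SE 0.28, edgeR adjusted p = 0.00054), and 1.57 without control horses 2 and 11.

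**Figure D3:**
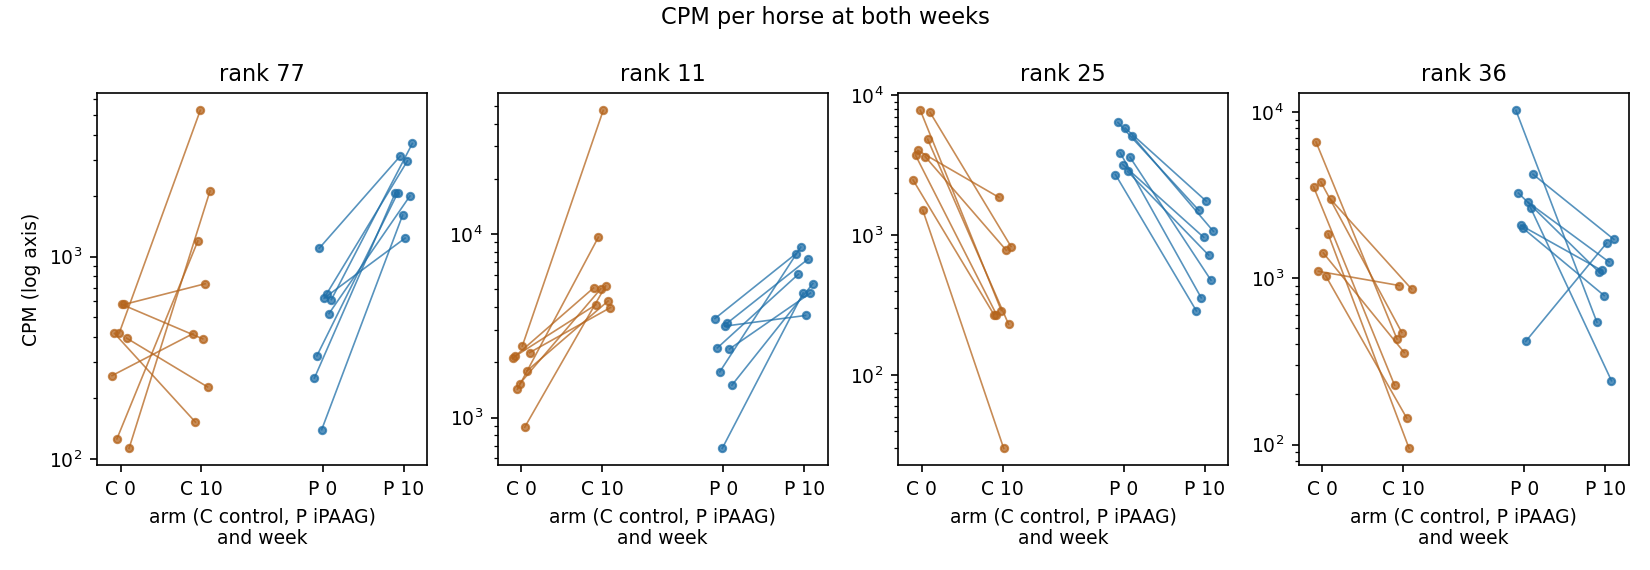
CPM (log axis) of ranks 77, 11, 25 and 36 in each horse at weeks 0 and 10, with C for the control arm and P for the iPAAG arm, and a line joining the 2 libraries of a horse. Rank 25 is lower at week 10 in all 16 horses and rank 11 higher in all 16, while rank 77 is higher in 8 of 8 iPAAG horses and 5 of 8 control horses.

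A further 8 falls and 8 rises completed the genes that moved most in at least 13 of 16 horses. Ranks 7, 60, 70 and 92 were lower in 16 of 16 horses, with mean log2 fold changes of -1.66, -1.23 (SE 0.23, edgeR adjusted p = 0.00136), -1.31 (SE 0.15, adjusted p = 2e-05) and -1.16 (SE 0.15, adjusted p = 4.64e-05). Ranks 12 and 15, outside the 10 largest falls and singled out after their values were seen, were also lower in all 16, at -1.09 and -1.13. Rank 29 was lower in 15 of 16 horses at -1.27 (SE 0.24), and ranks 50 and 85 in 14 of 16 at -1.31 (SE 0.29) and -1.58 (SE 0.30). In control horse 11 at week 10 the level of rank 85 was 9.75 CPM, beside a control median of 1440 CPM at week 0 and 413 CPM at week 10.

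Among the rises, ranks 17 and 48 were higher in all 16 horses at 1.35 (SE 0.26, edgeR adjusted p = 0.00168) and 1.16 (SE 0.24, adjusted p = 0.00253). Rank 28 rose by 1.08 (SE 0.16), rank 41 by 0.84 (SE 0.13) and rank 67 by 0.89 (SE 0.14), each in 15 of 16 horses. Ranks 30 and 97 were higher in 14 of 16 horses at 0.90 (SE 0.20) and 0.87 (SE 0.27). Rank 53 was higher in 13 of 16 at 1.39 (SE 0.25). In total 12 of the 13 rises and 20 of the 21 falls went the same way in at least 13 horses. These genes were already called in a fit with a term for each horse, so the count is no separate support for the calls. The same count was not made over all called genes of the table. The 4 genes that rose in all 16 horses, ranks 11, 14, 17 and 48, shared both extremes, which was seen in the data. Each was lowest in iPAAG horse 7 at week 0 and highest in control horse 11 at week 10. Without control horses 2 and 11 their log2 fold changes were 1.57, 0.74, 1.28 and 1.06, and all 4 were still called.

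In the control arm 4.76% of all genes tested rose, 6.21% fell and 11% were called. Among the next 900 by abundance 7.56% rose, 15.8% fell and 23.3% were called. Of the 100 genes 10 rose and 22 fell, 32 in all. The largest falls were -3.60 for rank 25 (SE 0.42, edgeR adjusted p = 0.000137), -2.84 for rank 36 (SE 0.59, adjusted p = 0.00489) and -2.51 for rank 85 (SE 0.45, adjusted p = 0.00192) on the log2 scale. The value of rank 29 was -2.08 (SE 0.35, edgeR adjusted p = 0.00121). Its CPM was 2268 to 3799 (median 2966) at week 0 and 118 to 2028 (median 895) at week 10, with no overlap. Rank 53 rose by 1.81 (SE 0.36, edgeR adjusted p = 0.00369), from 307 to 1784 CPM (median 856) to 1803 to 5754 CPM (median 2814), also with no overlap. The weeks did not overlap in 6 genes that were higher and 7 that were lower at week 10, beside 0.607% and 0.878% of all genes tested. Without control horses 2 and 11, 30 genes were called, beside 12.6% of all genes tested, and 28 of them were among the 32. The 4 that were not are ranks 13, 33, 46 and 65, and the first 3 of them were also lost without horse 2 alone.

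In the iPAAG arm 2.03% of all genes tested rose, 1.76% fell and 3.79% were called. Among the next 900 by abundance 2.33% rose, 3.89% fell and 6.22% were called. Of the 100 genes 5 rose and 4 fell, 9 in all. The rises were ranks 11, 28, 41, 67 and 77, and the falls ranks 7, 25, 70 and 92. Rank 77 rose by 2.31 (SE 0.55, edgeR adjusted p = 0.0256), rank 11 by 1.47 (SE 0.39, adjusted p = 0.043) and rank 28 by 1.14 (SE 0.23, adjusted p = 0.0102). The falls were -2.41 for rank 25 (SE 0.38, edgeR adjusted p = 0.00287), -1.47 for rank 7 (SE 0.31, adjusted p = 0.0125) and -1.11 for rank 70 (SE 0.21, adjusted p = 0.0082). The weeks did not overlap in 3 genes that were higher and 4 that were lower at week 10, beside 0.858% and 1.46% of all genes tested. The count of 9 became 18 without control horses 2 and 11, 10 up and 8 down, while the share of all genes tested went from 3.79% to 12.3%. Those horses are not in this arm. The 2 arms share 1 estimate of the spread of each gene.

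The arms hold different horses and share no library. Both were tested in the same fit, with a shared estimate of the spread of each gene. Of the members called, 8 were called in both arms, 4 rising and 4 falling. That is 25% of the 32 of the control arm and 88.9% of the 9 of the iPAAG arm. The same overlap was not counted over all genes tested, so whether these shares are particular to the members was not tested. Rank 77 was called in the iPAAG arm alone, and its value in the control arm was 1.04 (SE 0.62, edgeR adjusted p = 0.325). Without control horses 2 and 11 the control value was 1.85 (SE 0.63, edgeR adjusted p = 0.0691). A call in 1 arm and not in the other is not a difference between them, which was tested as such.

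**Figure D4:**
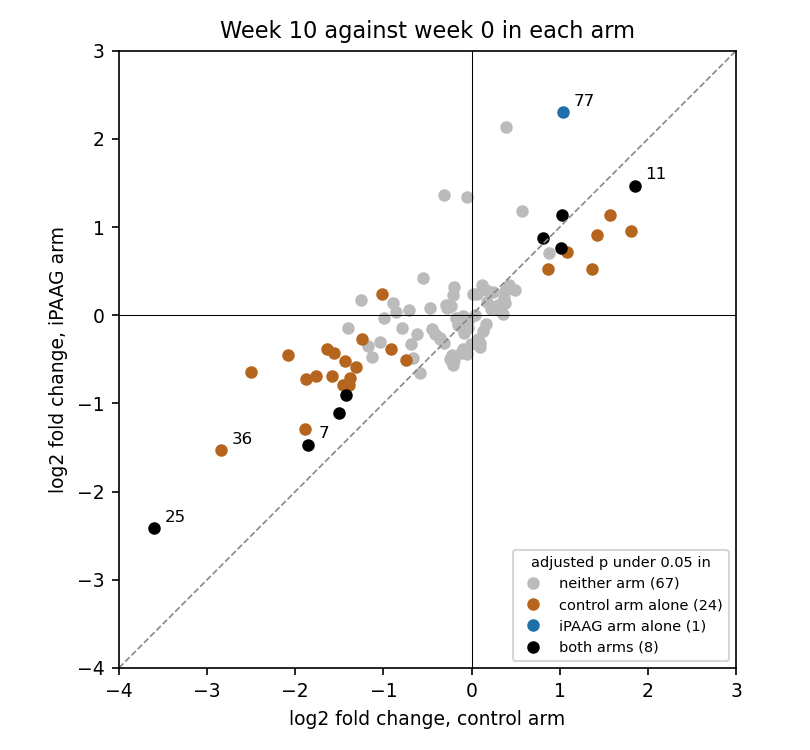
Log2 fold change of week 10 against week 0 in the control arm (horizontal axis) and the iPAAG arm (vertical axis) for the 100 genes, coloured by the arms in which the adjusted p was under 0.05, with a dashed line of equal change and ranks 7, 11, 25, 36 and 77 marked. The 8 genes called in both arms (black) are 4 at the lower left and 4 at the upper right.

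The second question was whether iPAAG horses changed otherwise than control horses. In edgeR 0 of the 100 genes differed in their change, as did 0% of all genes tested, and the lowest adjusted p of a member was 0.982. DESeq2 called 0 members and 12 of all genes tested, and limma-voom with library quality weights called 0 of either. At an unadjusted p under 0.05 there were 10 members, 10.0%, against 3.98% of all genes tested and 10.1% of the next 900 by abundance. The median difference, iPAAG minus control, was 0.19 over the members and 0.12 over all genes tested on the log2 scale. Of the named genes, ranks 29 and 85 had the lowest unadjusted p-values. Rank 85 differed by 1.86 (SE 0.60, 95% interval 0.59 to 3.12) and rank 29 by 1.63 (SE 0.47, 95% interval 0.64 to 2.62). Without control horses 2 and 11 these were 1.19 and 1.14. Rank 2 differed by 1.74 with a wide error (SE 1.78). Ranks 85 and 29 both had the lower value in the control arm, -2.51 and -2.08 against -0.65 and -0.45 in the iPAAG arm. Rank 77 differed by 1.26 (SE 0.82, 95% interval -0.45 to 2.98) and by 0.47 without control horses 2 and 11. Rank 25 differed by 1.19 (SE 0.54), rank 36 by 1.31 (SE 0.80), rank 7 by 0.38 (SE 0.43) and rank 11 by -0.38 (SE 0.55), each with an edgeR adjusted p of 0.982. For 34 of the 100 genes the 95% interval stayed within 2-fold either way, and for 83 within 4-fold.

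At week 10 itself, 0 of the 100 genes differed between the arms in edgeR, as did 0% of 14654 genes tested, and the lowest member had an adjusted p of 0.339. The unadjusted p was under 0.05 for 12 members, against 10.6% of all genes tested and 16.7% of the next 900 by abundance. DESeq2 called 0 members and 98 of all genes tested (0.669%), and limma-voom with quality weights called 0 of either. The lowest p-values were those of rank 75 (-1.02, SE 0.30) and rank 72 (1.47, SE 0.44) on the log2 scale of iPAAG against control. Rank 53 stood at -1.15 (SE 0.41, edgeR adjusted p = 0.357) and rank 36 at 1.24 (SE 0.47, adjusted p = 0.366). The 95% interval lay within 2-fold for 45 of the 100 and within 4-fold for 90.

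Before induction, at week 0, 0 of the 100 genes differed between the arms in edgeR, as did 0% of 14615 genes tested, and the smallest adjusted p was 0.794. The unadjusted p was under 0.05 for 1 member, rank 44 (0.32, SE 0.14), against 5.84% of all genes tested. DESeq2 called 0 members and 1 of all genes tested, and limma-voom with quality weights called 0 of either. The 95% interval lay within 2-fold for 84 of the 100 genes, more than at week 10. Rank 2 had the lowest value, -1.44 (SE 0.83), with medians of 7092 CPM in control and 4915 CPM in iPAAG horses.

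Over all 32 libraries, both weeks and arms together, the ratio of the highest to the lowest library had a median of 7.89 over the 100 genes, from 2.06 for rank 55 to 269 for rank 2. It was above 10 in 38 genes and under 3 in 14. Within groups, the coefficient of variation (SD over mean of CPM, 8 horses) had a median over the 100 genes of 24.6% in control horses at week 0, 47.6% in the same horses at week 10, 23.2% in iPAAG horses at week 0 and 27.0% at week 10. The next 900 genes by abundance had medians of 21.6%, 37.8%, 18.7% and 21.5% in the same order. All genes tested had 27.5%, 50.9%, 25.01% and 28.4%. The SD of log2(CPM + 1) instead placed the 100 genes above all genes tested in every group. Its medians were 0.387, 0.753, 0.346 and 0.394 against 0.318, 0.657, 0.278 and 0.333. Without horses 2 and 11 the median coefficient of the 100 genes in control horses at week 10 was 29.96%. It was then 27.3% in the next 900 genes and 33.3% in all genes tested.

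The most variable members were ranks 2, 5 and 36, with medians over the 4 groups of 102%, 111% and 68.8%. Rank 5 in iPAAG horses at week 0 had the highest value of all, 181%, from 7 libraries between 411 and 9818 CPM and that of horse 7 at 47948 CPM. At the other end were ranks 83, 86 and 87, at 10.3%, 11.01% and 10.7%. Control horses had 1056 ± 54.4 CPM of rank 83 at week 0 and 1068 ± 238 CPM at week 10, and 1103 ± 157 and 988 ± 62.8 CPM in iPAAG horses (SD, n = 8). None of these 3 passed the test over time, with log2 fold changes of -0.09 (SE 0.09), 0.02 (SE 0.11) and -0.06 (SE 0.10) in the mean of both arms.

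**Figure D5:**
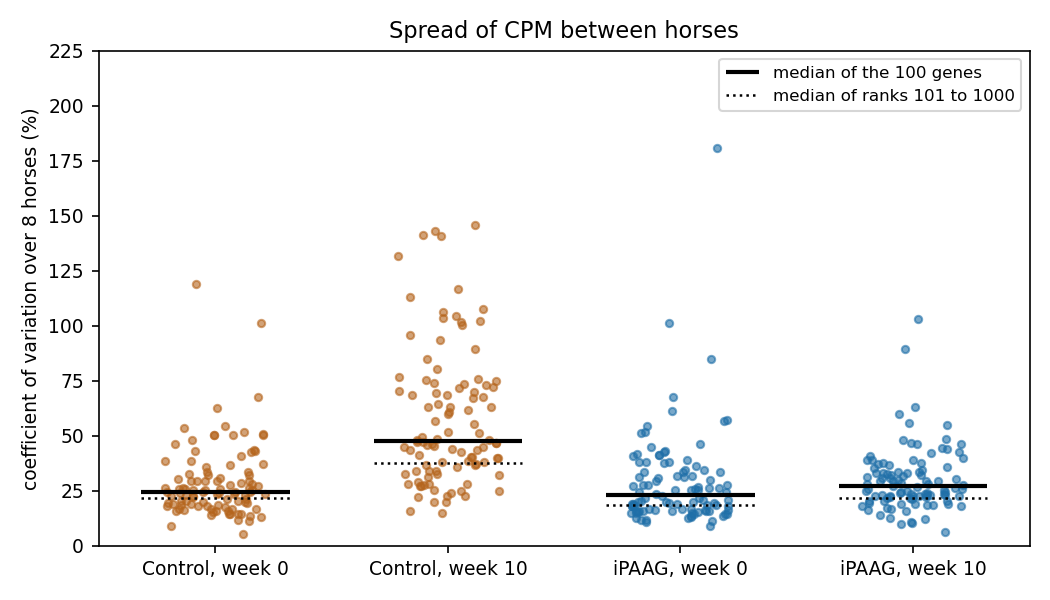
Coefficient of variation of CPM over the 8 horses of each group (%, vertical axis from 0), 1 point for each of the 100 genes, with the median of the 100 as a solid bar and that of the next 900 genes as a dotted bar. Control horses at week 10 have the highest median, 47.6%, which is 29.96% without horses 2 and 11. The next 900 genes have 37.8% there, and 27.3% without these horses.

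Control horses 2 and 11 at week 10 held many of the lowest values, and horse 11 alone many of the highest. Of the 100 genes, 28 had their highest and 36 their lowest value in control horse 11 at week 10, and 5 and 20 in control horse 2 at week 10. No other library held more than 10 maxima or 8 minima. Against the median of the 6 other control libraries of week 10, 23 genes were over 2 times and 42 under 0.5 times in horse 11, and 3 and 27 in horse 2. Control horses 1 and 15 at week 10 were also low in many, with 25 and 29 genes under 0.5 times the median of the others of that group. Horses 2 and 11 were left out of that median. These counts are given for the 100 genes alone, without the same counts over all genes.

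A set of 7 members, ranks 4, 16, 18, 22, 32, 37 and 47, have neighbouring Ensembl numbers, within a span of 26 numbers that holds 12 genes of the table. It was the only run of 3 or more members at most 10 numbers apart and was found after the values were seen. What these genes encode was not determined. Their summed share of counts had a median of 2.28%, from 1.81% to 3.60% in 31 libraries, and was 13.1% in control horse 11 at week 10, where all 7 had their highest value. By group the sum was 2.40% ± 0.343 and then 3.78% ± 3.79 in control horses, and 2.21% ± 0.305 and then 2.54% ± 0.696 in iPAAG horses (SD, n = 8). Without horse 11 the control value at week 10 was 2.45% ± 0.377 (SD, n = 7). In edgeR 0 of the 7 changed over time in the mean of both arms, with log2 fold changes from -0.05 to 0.39 and a smallest adjusted p of 0.218.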

How the data were processed

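Polyadenylated RNA of digested synovium was sequenced in 32 libraries. The values the authors deposited are raw counts, 1 whole number per Ensembl gene and library. STAR 2.7.10b, limma 3.62.2 and EquCab3.0 are named per the submitters' processing notes. How reads were assigned to genes, with which annotation and strand, is not given in the sources used here. Overlapping genes and near-identical copies are therefore uncertain. In 6 genes, all among the 100, 33 values are written with 3 significant digits.

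Columns were matched to horses by name. CPM levels use library totals without further scaling. Tests used edgeR 4.0.16 (R 4.3.3), with its quasi-likelihood test, TMM factors and its filter for low counts. P-values were adjusted by Benjamini-Hochberg over all genes tested, at 0.05. TMM factors of the whole table before the filter ran from 0.788 to 1.12, and the tests computed theirs anew after it. The model of change over time held every library, a term for each horse and 1 week 10 term per arm, and the arms were compared within each week without a block. Standard errors are the log2 fold change over the root of F, all p-values are two-sided, and p-values rest on separate animals. The code of the horse in the titles pairs its 2 libraries. Correlations of their deviations from group means had a median of 0.102, from -0.335 to 0.465, and were over 0.1 in 8 of 16 horses.

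The rule named the 10 genes of highest mean CPM, up to 10 rises and 10 falls called in the mean of both arms that went the same way in at least 13 of 16 horses, the 3 most and 3 least variable, and 3 ranks on either side of the limit. Members, lists and tests were chosen with earlier results of these data known. Marker and gene lists were not used for lack of symbols. The edgeR fit of change over time was run on simulated counts. No library was made to stand apart in them, so the case of control horses 2 and 11 was not covered. Alternatives were DESeq2 1.42.0, limma-voom with quality weights (limma 3.58.1), other scalings, no filter, no horse block, and fits without control horses 2, 11 or both.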

Additional observations from a re-analysis of the deposited data

Results flagged for a closer look

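In 128 groups of 8 values, namely the share of counts and the CPM of the named genes in each of the 4 groups, the highest or lowest value was set against the gap to its neighbour. In independent groups of normally distributed values chance marks about 1 in 20. CPM need not have that shape. These genes were also chosen in part for their level and spread and share libraries, so that rate is no measure for them. In all 13 were marked, each for its highest value, of which 6 were in control horse 11 and 2 in control horse 2, both at week 10.

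In control horse 11 at week 10 the share of the 100 genes was 38.9%, against 24.3% to 29.0% in the others of its group. In the same library rank 4 stood at 53818 CPM against 5711 to 12350, rank 11 at 47178 CPM against 3975 to 9607, and rank 17 at 32415 CPM against 2199 to 8210. Rank 48 stood there at 15229 CPM against 1240 to 2479, and rank 67 at 3163 CPM against 1287 to 1993. Control horse 2 at week 10 held 116093 CPM of rank 2, the others 1920 to 49900, and rank 86 at 1871 CPM against 672 to 1236.

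Rank 25 reached 1865 CPM in control horse 9 at week 10, where the others had 30.02 to 830, and rank 77 was 5279 CPM in control horse 10, against 152 to 2109. Among iPAAG horses at week 0, rank 5 was 47948 CPM in horse 7 against 411 to 9818. Horse 3 of that group held 10249 CPM of rank 36 against 417 to 4230, and 1667 CPM of rank 53 against 244 to 905. No gene of the 100 moved one way in all horses of an arm and the other way in all horses of the other.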

How the results depend on the processing

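Averaged over the arms, 34 members were called, beside 18.6% of all genes. With limma-voom and library quality weights they became 56 (15 up, 41 down), beside 38.4% of all genes. The share of rises was then 26.8% in place of 38.2%. DESeq2 called 47 members (18 up, 29 down), beside 29.2% of all genes. The count was 34 without control horse 2 (19.6% of all genes) and 39 without control horse 11 (24.9%). In the iPAAG arm the count of 9, beside 3.79% of all genes, was 23 with DESeq2 (11.5% of all genes) and 37 with quality weights (24.9%). It was 18 without control horses 2 and 11 (12.3%), 9 without horse 2 alone (5.21%) and 12 without horse 11 alone (7.85%). In the control arm the count of 32, beside 11% of all genes, was 31 without horse 2 (9.66%) and 33 without horse 11 (12.97%). Without both horses the control count was 30 (12.6% of all genes), with DESeq2 45 (20.7%) and with quality weights 40 (17.6%). The cause of these moves was not tested. A fit with no replicate block for the horse called 39 (mean, 22.8% of all genes), 34 (control arm, 13.4%) and 9 (iPAAG arm, 4.83%). The block thus moved no count of members by over 1.5 times. Without it, rank 11 was not called in the iPAAG arm. The other scalings and the fit with no filter kept every called member and moved the median of all genes by less than 0.1. Members that differed between arms, in their change or within a week, numbered 0 under every setting run.

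Over the 31 named genes and their settings, 7 values took the other sign, all of genes near 0, and 3 passed the threshold that had not (rank 3 with DESeq2 and quality weights, rank 9 with quality weights). Rank 6 was 0.0387 and rank 86 was -0.0226 with quality weights. Rank 86 was -0.000986 without control horses 2 and 11, and rank 87 was 0.0348. Without control horse 2 or 11, rank 10 ran from -0.167 to 0.0110 and rank 87 from -0.0243 to 0.0089. Rank 10 was 0.0101 without the block. A list of 50 genes held 22.3% of counts and one of 200 held 35.3%. The list shared 99 genes with one chosen on median CPM or without control horses 2 and 11. The median spread of the 100 genes was 1.19 times that of the next 900 genes, and 1.13 times without control horses 2 and 11. Library totals limit the smallest library most, yet all members had counts in it.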
